A study of Arabidopsis thaliana with 12 samples.

Results

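SIS, DI21 and AILP1 are 3 Arabidopsis thaliana genes that carry the name of a stress: SIS (AT5G02020) is short for Salt Induced Serine rich, DI21 (AT4G15910) for drought-induced 21, and AILP1 (AT5G19140) belongs to the aluminium-induced protein family. Their probes, with IDs 3067, 676 and 3107, are 3 of the 3439 probes of a 1-channel expression array. Each is annotated to its gene alone, as are the probes of 689 genes in all. The genes were chosen by their names and selected on their light and dark intensities in these same samples, so these intensities are given as a description without a test. RNA was measured in plants exposed to darkness for 1 h (6 samples) and in light-adapted plants (6 samples). All plants were wild type of the ecotype Columbia 0, the usual laboratory accession. The labels name no tissue or age, and they do not say whether the samples came from separate plants.

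As background, plants meet salt and drought largely through the hormone abscisic acid, which raises transcripts for protective proteins. DI21 is a member of the late embryogenesis abundant proteins, small proteins that accumulate in drying seeds and in water-stressed tissue. AILP1 is named for its likeness to wali proteins of wheat, which were found in aluminium-treated roots. SIS encodes a serine-rich protein found through its induction by salt. None of these names refers to light, and the question here is what the 3 transcripts did in the first hour of darkness.

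The deposited intensities run from 0 to just under 100 in each sample, in arbitrary units. They were quantile normalised, so values below are normalised intensities. Samples 1 and 2, 3 and 4, and 5 and 6 of a group were most alike and were averaged, which gives means ± SD over 3 averaged replicates a group. A background limit was set for each sample below which 95% of its values fell among the probes that read 0 in its neighbour. That limit lay between 0.0295 and 0.0501 in the 6 dark samples and between 0.0289 and 0.194 in the 6 light-adapted ones, highest in light-adapted samples 5 and 6 (0.136 and 0.194). All 3 genes are dim, so where this limit stood bears on each value. The 6 measured genes of the green-tissue list (PSAN, PSBY, PSB27, LHB1B2, PRK and PSBW, of photosynthesis) were above the limit in all 12 samples. Their summed intensity ranged from 78.5 to 95.9 in the dark and from 74.6 to 95.7 in the light. LHB1B2 and PSBW make up most of that sum, and single genes differed in direction: PSBW averaged 34.6 in the dark and 21.0 in the light, PRK 2.53 in the dark and 4.62 in the light, and PSB27 0.940 in the dark and 2.73 in the light. Neither the seed nor the root list had a measured gene. In such bulk samples, fewer cells of a type and less RNA per cell cannot be told apart.

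SIS was higher in the dark, where its normalised intensity varied little between samples. Its intensity in the 6 dark samples had a lowest value of 0.410, a median of 0.434 and a highest of 0.452. In the 6 light-adapted samples the lowest was 0.0560, the median 0.0794 and the highest 0.115. Every dark sample lay above every light-adapted sample. The mean was 0.433 ± 0.00166 in the dark and 0.0827 ± 0.0163 in the light (SD, n = 3 each), a ratio of 5.23. The fitted log2 change, from averaged log2 values, was 2.43 (SE 0.16), which is 5.40-fold higher in the dark. That dark SD is of averages of neighbours, from 0.431 to 0.434, and understates the spread of the 6 single values. Over all probes the median log2 change was 0, and 57 of the 3439 probes (1.66%) had a larger rise.

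The 6 same-numbered differences of SIS, dark minus light, were all positive, from 1.96 (number 5) to 3.01 (number 3) on the log2 scale. After normalisation the dark samples (0.323 to 0.499 as deposited) differed little, neighbours by 0.094 to 0.14 on the log2 scale. In the light the spread was wider, with 0.20 between samples 1 and 2, 0.87 between 3 and 4 and 0.43 between 5 and 6. SIS was above the background limit in 6 of 6 dark samples and in 3 of 6 light-adapted ones. In light-adapted samples 1 and 2, where the limit was lowest (0.0289 and 0.0360), SIS read 0.0731 and 0.0636 and so stood above it, and there the differences to the dark were 2.52 and 2.82. The light level in samples 3, 5 and 6 was below the limit, so a smaller true level there, and with it a larger fold, was not measurable.

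DI21 moved the other way and was lower in the dark. Its lowest, median and highest intensities were 0.0318, 0.0695 and 0.102 in the 6 dark samples. In the 6 light-adapted samples they were 0.165, 0.208 and 0.236. The groups did not overlap, with every dark sample below every light-adapted one. The mean was 0.0697 ± 0.0184 in the dark and 0.200 ± 0.00950 in the light (SD, n = 3 each), a dark-to-light ratio of 0.349. The fitted log2 change was -1.60 (SE 0.25), which is 3.02-fold lower in the dark. A larger drop was seen for 175 probes, 5.09% of all.

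Between dark neighbours DI21 differed by 1.04 (samples 3 and 4), 0.77 (samples 1 and 2) and 0.22 (samples 5 and 6) on the log2 scale, and by 0.045 to 0.51 between light-adapted neighbours. Same-numbered samples differed by -0.70 (number 1, the least) to -2.70 (number 3, the most) on the log2 scale. Dark sample 3, at 0.0318, was also the only one of the 12 samples in which DI21 was not above its background limit. Light-adapted sample 6, at 0.210, stood little above its limit of 0.194.

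AILP1 was higher in the dark on average, but its groups overlapped. The lowest, median and highest intensities were 0.0910, 0.165 and 0.181 in the 6 dark samples. They were 0, 0.0413 and 0.217 in the 6 light-adapted samples. The highest of all 12 values was thus a light-adapted one, that of sample 6, while the other 5 light-adapted samples, from 0 to 0.0673, were below every dark sample. The value of sample 6 stood little above the background limit of that sample, 0.194, a limit higher than every dark value of AILP1. The mean was 0.151 ± 0.0183 in the dark and 0.0644 ± 0.0398 in the light (SD, n = 3 each), a ratio of 2.34. The fitted log2 change was 1.79 (SE 0.28), which is 3.47-fold. This exceeds the ratio of means because log2 values were averaged, in which low light values weigh more than in a mean of intensities. The 0 of light-adapted sample 5 was set to the floor. With the floor at the 1st percentile the log2 change was 2.21, and at the 20th it was 1.25. With a light level mostly below the limit, the size of the difference was not determined.

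Light-adapted samples 5 and 6 carried most of the uncertainty of AILP1. The probe read 0 in sample 5 and 0.217 in sample 6, the sample numbers that were averaged with each other. After the floor these differ by 4.17 on the log2 scale (18.0-fold), and 2.06% of all probes differed more between these 2 samples. Averaging hides that difference from the SE: with 12 separate samples the SE was 0.59, and with neighbouring numbers as random blocks 0.92, against 0.28. Without light-adapted sample 5 the log2 change of AILP1 was 1.10, and without sample 6 it was 2.49. Same-numbered differences ranged from -0.27 for number 6 to 3.44 for number 5, with 5 of 6 above 0. In the light AILP1 was above the background limit in 2 of 6 samples (numbers 2 and 6), and in the dark in 6 of 6, so its light level was mostly not measured. Correlation between light-adapted samples 5 and 6 over all probes was 0.833, the lowest of the 6 neighbour pairs (0.916 to 0.952 for the others).

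**Figure D1:**
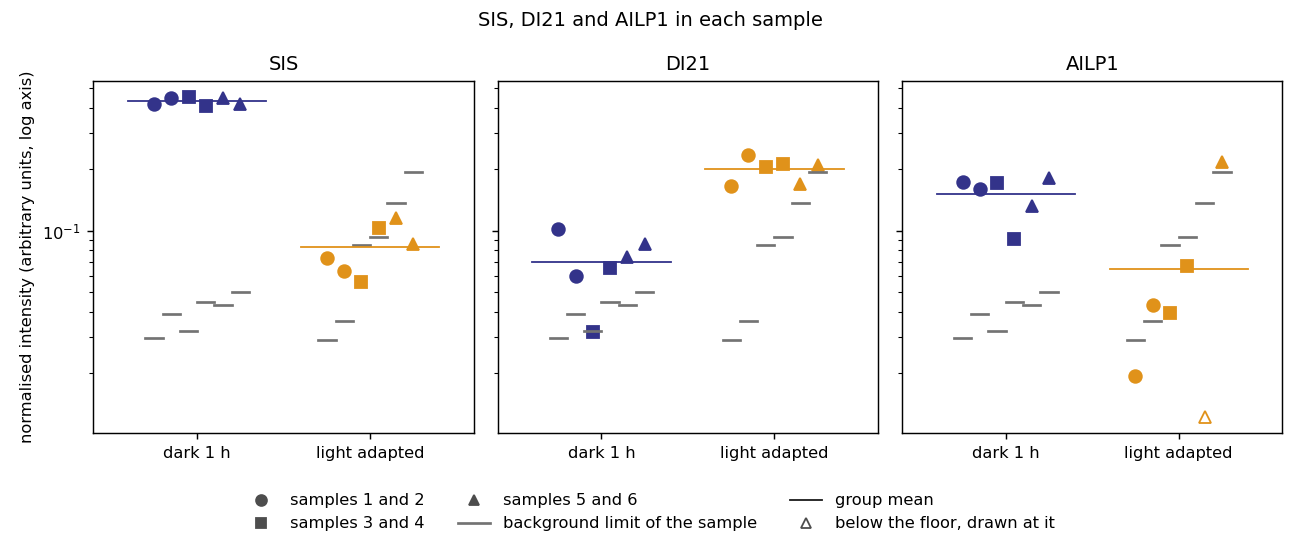
Normalised intensity (log axis, arbitrary units) of SIS, DI21 and AILP1 in each of 6 dark and 6 light-adapted samples, with a grey bar at the background limit of that sample and a line at the group mean. SIS separates upward and DI21 downward in the dark without overlap, while for AILP1 light-adapted sample 6 (0.217) stands above all dark samples and sample 5 (0, open symbol) is drawn at the floor of 0.0121.

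**Figure D2:**
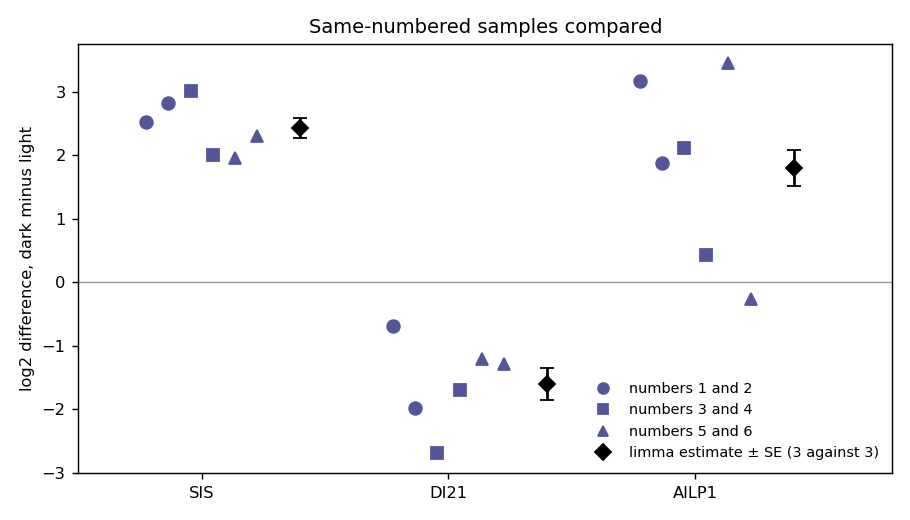
Log2 difference, dark minus light, between samples of the same number for each gene, with marker shapes for neighbouring numbers and the limma estimate ± SE from 3 averaged replicates a group. All 6 differences are positive for SIS and negative for DI21, and AILP1 ranges from -0.27 to 3.44.

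The separation of SIS and DI21 by group was also present in the values as deposited. Before normalisation SIS ranged from 0.323 to 0.499 in the dark and from 0.0574 to 0.126 in the light. DI21 ranged from 0.0413 to 0.0833 in the dark and from 0.149 to 0.277 in the light, and neither gene's groups overlapped. AILP1 ranged from 0.0942 to 0.196 in the dark and from 0 to 0.201 in the light.

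Across the whole array, limma's test with Benjamini-Hochberg adjustment at 0.05 called 267 of 3439 probes, 7.76%, with 4.3% higher and 3.46% lower in the dark. All 3 genes were among them, which follows from how they were picked, and nothing is read from it. With a replicate block for the pairs, limma called 0 probes (798 had an unadjusted p under 0.05, and the smallest adjusted p was 0.0628), so none of the 3 genes passed. The 6 dark and 6 light-adapted samples did not overlap for 15.3% of all probes, among them SIS and DI21. Dark samples were all higher for 8.81% and all lower for 6.51%.

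Beyond the average difference between light and dark, the 3 genes varied together only weakly. After each group's mean was taken off, the correlation of log2 values over the 12 samples was -0.21 between SIS and DI21, -0.083 between SIS and AILP1 and 0.21 between DI21 and AILP1. These are weak values from few samples that share normalisation, and neighbouring numbers counted here as separate samples. In the light SIS was above the background limit in 3 of 6 samples and AILP1 in 2 of 6. Shared variation below the limit could therefore not be seen.

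A second probe on the array lists SIS, and it changed far less. Probe 3595 is annotated to SIS together with AT5G59080 and AT3G46880, so its signal cannot be given to any of them. Its lowest, median and highest intensities were 0.0747, 0.106 and 0.151 in the dark and 0.0652, 0.0772 and 0.127 in the light, and the groups overlapped. The mean was 0.111 ± 0.0143 in the dark and 0.0864 ± 0.0152 in the light (SD, n = 3 each), a log2 change of 0.36 (SE 0.17) that did not pass in limma (adjusted p = 0.303). All 6 same-numbered differences were nonetheless above 0, from 0.16 to 0.62, but it did not pass in limma with a replicate block for the averaged pairs (adjusted p = 0.154) or with neighbours as random blocks (0.567). It passed only when neighbours counted as separate samples and the sample number was the replicate block (adjusted p = 0.0302). The probe of SIS alone changed by 2.43 in the same samples.

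AILP1 also has a second probe, 3408, listed with the related genes AT5G43830 and AT3G22850. It did not exceed the background limit in any of the 12 samples. Its values reached at most 0.0198 in the dark and 0.0337 in the light, and 3 dark and 4 light-adapted samples were at exactly 0, so no change can be given.

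Of the wider stress pathways the array gives little under single gene names. The lists compared held 69 genes: 38 of salt, drought, abscisic acid and aluminium responses, 10 late embryogenesis abundant genes, 4 other genes of the aluminium-induced family and 17 known from darkness or sugar starvation. Of these, 0 had a probe of their own, and apart from SIS and DI21, 0 single-gene probes carried a stress word in their symbol or synonyms. The exception that could be read was a pair of probes, 615 and 3484, both annotated to COR15A and COR15B and to no other gene. These neighbouring genes encode chloroplast proteins that accumulate in cold and drought and protect membranes. Since each probe lists both, a value belongs to the pair and not to either gene.

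Both COR15 probes rose in the dark. Probe 615 had a lowest, median and highest intensity of 0.747, 0.972 and 1.06 in the dark and of 0.318, 0.343 and 0.519 in the light. Its mean was 0.928 ± 0.155 in the dark and 0.374 ± 0.0740 in the light (SD, n = 3 each), a ratio of 2.48. The fitted log2 change was 1.32 (SE 0.20, limma adjusted p = 0.0315), which is 2.50-fold higher in the dark. Probe 3484 had 0.695, 0.775 and 0.873 in the dark and 0.0624, 0.172 and 0.288 in the light.

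The mean of probe 3484 was 0.782 ± 0.0381 in the dark and 0.171 ± 0.0782 in the light (SD, n = 3 each), a ratio of 4.58. Its fitted log2 change was 2.35 (SE 0.41, limma adjusted p = 0.0416), which is 5.10-fold higher in the dark. For both probes the groups did not overlap, and 6 of 6 same-numbered differences were positive. Both were above the background limit in all dark samples, and probe 3484 missed it in the light only in sample 6. The other probe with a listed gene, which also lists AILP1, was below the background limit throughout. The COR15 probes both list the same 2 genes and were chosen after the data were seen. They thus stand for 1 target and give no result for the stress lists. The median log2 change of these COR15 probes was 1.84, against 0 over all probes, of which 4.3% were called higher. The calls were lost with a replicate block for the pairs (adjusted p = 0.0915 for probe 615 and 0.113 for probe 3484), without normalisation (0.129 and 0.108) and under median scaling (0.0592 and 0.0605). Both also lost them without light-adapted sample 6 (log2 changes of 1.26 and 2.25), and probe 3484 alone without light-adapted sample 1 (2.51) or 4 (2.27).

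**Figure D3:**
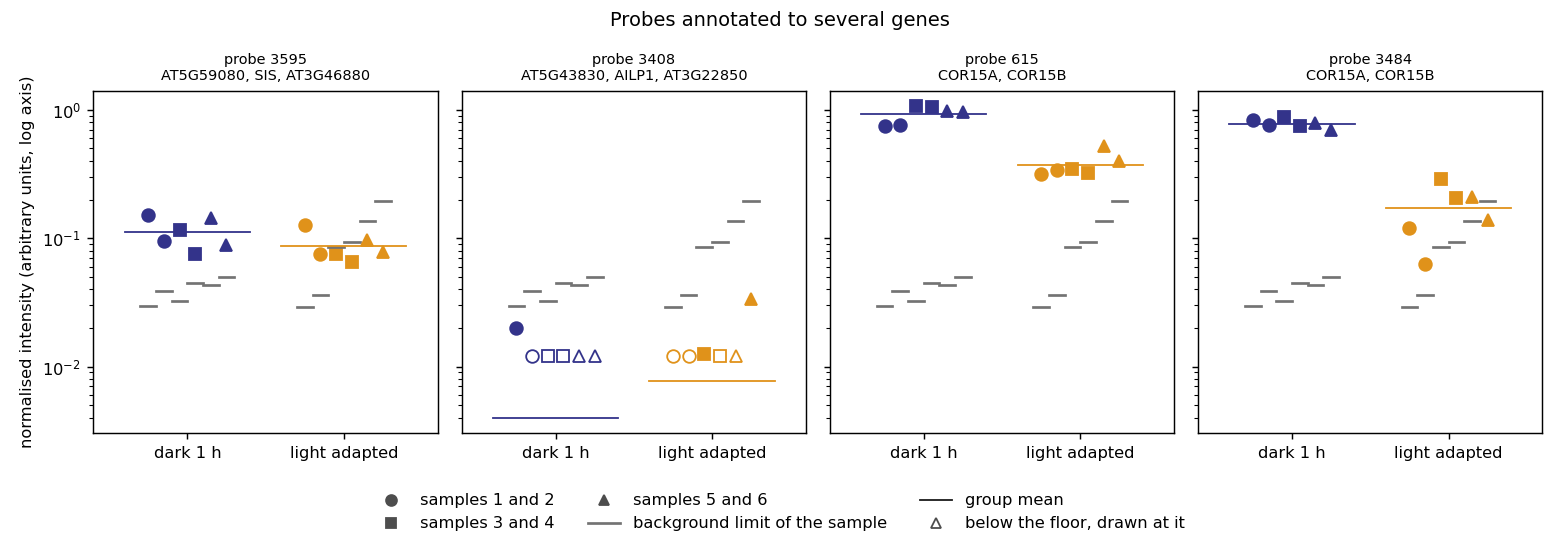
Normalised intensity (log axis, arbitrary units) in each of 6 dark and 6 light-adapted samples for the 4 probes annotated to several genes: 3595 (with SIS), 3408 (with AILP1), and 615 and 3484 (COR15A and COR15B). Grey bars mark each sample's background limit, lines the group means, and open symbols values below the floor. The COR15 probes separate by group, probe 3595 overlaps, and probe 3408 lies below the limit throughout.

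Single-gene probes with the pattern most like each gene were sought by Pearson correlation of log2 values over the 12 samples among 508 candidates. This correlation includes the difference between light and dark and is a description. Closest to SIS were AT5G63390 (0.985), AT4G13550 (0.984) and AT4G31930 (0.977). AT4G13550 had 1.17 ± 0.228 in the dark and 0.215 ± 0.0574 in the light (SD, n = 3 each) and, unlike SIS, was above the background limit in all 6 light-adapted samples. AT5G63390 was above it in 2 of 6 and AT4G31930 in 0 of 6.

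Closest to DI21 were PAC (0.940), a gene needed for chloroplast development, IAA31 (0.915), a member of the Aux/IAA repressors of auxin response, and AT2G36480 (0.912). IAA31 had 0.903 ± 0.0353 in the dark and 1.79 ± 0.199 in the light, a log2 change of -0.98, and PAC had 0.171 ± 0.0204 in the dark and 0.462 ± 0.0578 in the light (SD, n = 3 each). Both were above the background limit in all 12 samples.

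Closest to AILP1 were AT4G01310 (0.892), AT4G20300 (0.890) and FATB (0.814), a thioesterase that releases fatty acids in the plastid. Here the likeness came with small changes between light and dark, of 0.38 for AT4G01310 and 0.32 for AT4G20300 on the log2 scale. Both of these were lowest in light-adapted sample 5 (0.113 and 0.250) and highest of the light-adapted samples in sample 6 (0.270 and 0.380), the same ends as AILP1. FATB, with a log2 change of 2.04, was likewise lowest in sample 5, at 0, but highest in sample 4. In the light FATB was above the background limit in 2 of 6 samples, AT4G01310 in 5 of 6 and AT4G20300 in 6 of 6. The values of FATB and AT4G01310 in light-adapted sample 5 were below its limit of 0.136.

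Probes with neighbouring IDs were examined because a bright spot can spill onto the next. The array's layout is not known from the labels or files. The probe just after SIS, 3068, was bright, with a mean over 6 samples of 1.44 in the dark and 1.06 in the light (log2 change 0.47, limma adjusted p = 0.419), and the probe just before it, 3066, was close to 0. Before AILP1, AT1G01500 (probe 3106) had 0.0816 in the dark and 0.0136 in the light (log2 change 2.19, limma adjusted p = 0.0753), and the probe after AILP1 was at 0 in all dark samples. The probe after DI21, 677, had 0.0375 in the dark and 0.0409 in the light. Of probes 6 IDs away, 3073 (after SIS) had a log2 change of 1.40, 3113 (after AILP1) of 1.16 and 3101 (before AILP1) of -1.52, and none of them passed in limma (adjusted p = 0.192, 0.219 and 0.104). With a running median along the IDs subtracted, the log2 change was 2.05 for SIS, -1.55 for DI21 and 1.51 for AILP1, and DI21 and AILP1 then no longer passed the limma threshold. Whether neighbours contributed to a value was not tested further.

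**Figure D4:**
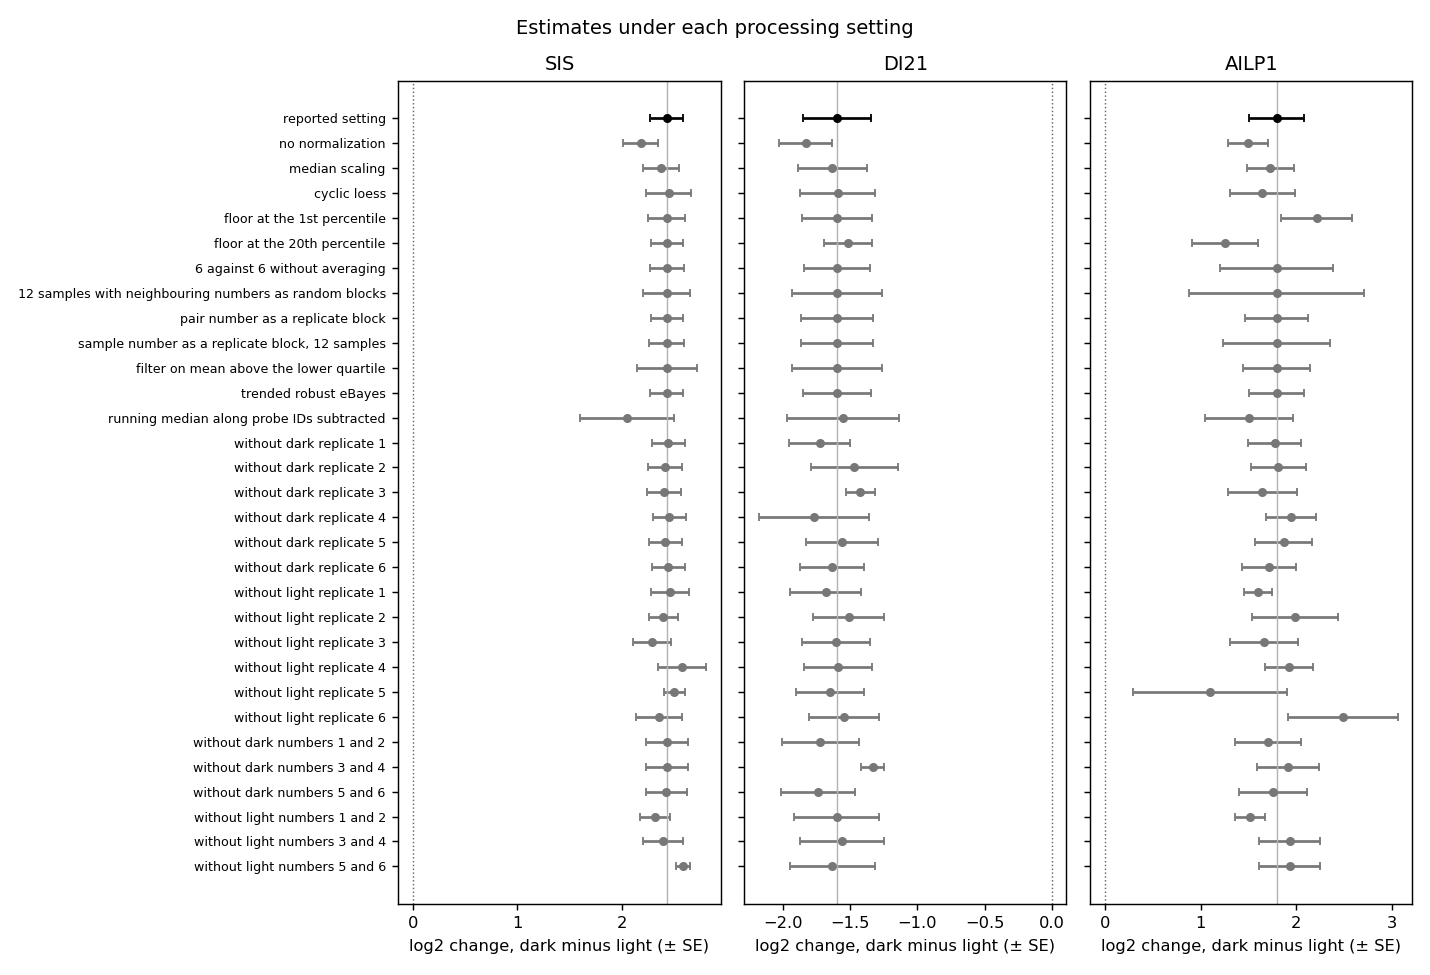
Log2 change, dark minus light (± SE), of SIS, DI21 and AILP1 under the reported setting and 30 other settings, with a grey line at the reported value and a dotted line at 0. SIS stays between 2.05 and 2.59 and DI21 between -1.83 and -1.33, while AILP1 runs from 1.10 without light-adapted sample 5 to 2.49 without sample 6. Settings that altered only averaging, blocks, probe filter or eBayes options cannot move the estimate.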

How the data were processed

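Total RNA of 12 samples was hybridised to a 1-channel array, and groups and sample numbers came from the sample titles. The authors deposited linear intensities that end just under 100 in every sample. How they scanned, background-corrected and scaled the arrays is not given in the sources used. Intensities were quantile normalised. Values under the 5th percentile of the positive ones (0.0121) were set to it before taking log2, so folds of dim probes can be too small or too large. For AILP1 the log2 change was 1.79 with the floored value of light-adapted sample 5 and 1.10 without that sample. Neighbouring numbers were averaged, and all 3439 probes were fitted in limma 3.58.1 (R 4.3.3, lmFit and eBayes, dark minus light). The procedure was tested on simulated data. The number of arrays limits precision, and p-values cover only sample-to-sample spread, which may be technical.

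Averaging follows an earlier analysis of these values. Deviations of same-numbered averaged replicates of the 2 groups had correlations of 0.120, 0.146 and 0.208 over all probes. Differently numbered replicates were not compared. The numbers may pair the samples, but these weak values alone do not settle it. The reported fit leaves the pairing out, so its SEs and p-values are those of unpaired groups. With a replicate block for the pairs, 0 probes passed.

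Of 3439 probes 692 had 1 gene, 870 several and 1877 none named here. Names came from a platform annotation, updated through RefSeq (TAIR10.1), where 690 of 692 matched. Probe coordinates are not printed, since no genome build is named. The members, lists and background limit were chosen with earlier results of these data known. The rule for named genes took the 3 genes, other probes listing them, probes with IDs 1 and 6 away, the 3 single-gene probes most like each (mean above the lower quartile, 0.0362) and called list genes. Because no list gene had a probe of its own, probes whose several genes were all on the lists were used, chosen after the data were seen. Figures were drawn with matplotlib 3.10.9.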

Additional observations from a re-analysis of the deposited data

Results flagged for a closer look

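In 14 groups of 6 samples (7 probes, both conditions), 3 had a sample far from the others by Dixon's test at 95%. Chance flags about 1 group in 20 only where values are independent and normally spread. Groups with many readings of 0, as for probe 3408, are not, so no excess of outliers can be read from the count. Light-adapted sample 6 stood apart for AILP1, at 0.217 against 0.0673 for the next highest light-adapted sample, and is the sample whose omission changes its log2 value from 1.79 to 2.49. For probe 3408, which lists AILP1 with AT5G43830 and AT3G22850, dark sample 1 stood apart at 0.0198 and light-adapted sample 6 at 0.0337, both below the background limits of these samples.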

How the results depend on the processing

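No estimate of SIS, DI21 or AILP1 changed sign in 30 other settings. Those that altered only the averaging, the blocks, the probe filter or the eBayes options could not move an estimate and returned the reported ones. Without normalisation SIS had a log2 change of 2.18, and with a running median along the probe IDs subtracted 2.05, against 2.43. AILP1 depended on the floor, with 2.21 at the 1st and 1.25 at the 20th percentile, against 1.79. Of its light-adapted values, only the 0 of sample 5 lay below the reported floor of 0.0121. Over settings that left out samples, SIS ranged from 2.29 to 2.59, DI21 from -1.77 to -1.33 and AILP1 from 1.10 to 2.49. The genes were selected on this contrast in these samples, so a call kept in a refit is no support for a change. Of the 12 fits that left out a single sample, SIS passed in 12, DI21 in 10 (lost without dark sample 2, at -1.47, or 4, at -1.77) and AILP1 in 7 (lost without dark sample 3, at 1.64, or light-adapted sample 2, 3, 5 or 6, at 1.99, 1.67, 1.10 and 2.49). Without whole pairs, SIS lost its call without dark numbers 1 and 2 (2.43), and DI21 and AILP1 each passed in 1 of 6 such fits. Among other settings DI21 was also lost with the running median subtracted, and AILP1 there, at the 20th percentile floor, with random blocks and with the sample number as a block. A balanced replicate block cannot move an estimate, but with a replicate block for the pairs 0 probes passed (798 at an unadjusted p under 0.05 in limma), so all 3 genes lost their calls. The count of 267 probes, of which 55.4% rose, became 155 without normalisation (34.8% rose), 814 without averaging, 585 with neighbouring numbers as random blocks and 784 with all 12 samples and their number as a replicate block. Over settings that left out samples it ranged from 17 to 273, and was 17, 95 and 63 without dark numbers 1 and 2, 3 and 4, and 5 and 6. The 2 called COR15 probes became 0 without normalisation, under median scaling and with the pair block, and 0 to 2 with samples left out, among them 0 without any of the dark pairs or light-adapted sample 6 and 1 without any of the light-adapted pairs. Their median change stayed between 1.54 and 1.97. Why calls were lost was not tested. The pair block also leaves fewer residual degrees of freedom. Signal near background limits AILP1 and the light level of SIS.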
